A study of Caenorhabditis elegans with 4 samples.

Results

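The left arm of chromosome III of Caenorhabditis elegans held 657 of the 9630 peaks in the series peak list for SWD-3, which is 6.82% of the list and 46.7% of the 1407 peaks on that chromosome. The members were taken by position alone: a peak belonged to the arm when its midpoint lay at or below base 3446000 of chromosome III in WormBase WS220, the outer 25% of the chromosome. The right arm, with midpoints above base 10337000, held 255 peaks and served as the comparison, and the gene-rich centre between them held 495. Both arms measure close to 3.446 Mb.

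The data came from chromatin immunoprecipitation with sequencing (ChIP-seq) of embryos of mixed stages from the wild-type strain N2, a population of males and hermaphrodites kept at 20 °C. Embryos were fixed with formaldehyde, the chromatin was sonicated, and SWD-3 was precipitated with the affinity-purified rabbit polyclonal antibody SDQ4640. There were 2 ChIP libraries, replicates 1 and 2, and 2 libraries of input DNA. No mutant lacking SWD-3 and no other antibody is among the samples, and whole embryos mix all cell types. A peak list was at hand for each ChIP library (2698 and 4580 peaks) and for the whole series, but no read values for the input. Depth is unknown for every list, and regions that give peaks with any antibody could not be told apart from SWD-3 binding. Whether each replicate was a culture of its own is not in the labels.

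SWD-3 belongs to the WDR5 family of WD40-repeat proteins, which serve as scaffolds of the enzymes that place methyl groups on lysine 4 of histone H3, a mark of active promoters. Worm autosomes have a compact, gene-dense centre and arms that are richer in repeats, recombine more often in meiosis and carry more of the silencing methylation of lysine 9 of histone H3. The left arm of III also carries the meiotic pairing centre of its chromosome, a domain of short repeated motifs that is bound in germ cells by the zinc-finger protein ZIM-1 and holds homologous chromosomes together. Pairing takes place in the adult germline and not in embryos.

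Peaks were far denser in the left arm than in the right arm. The left arm had 190.7 series peaks per Mb and the right arm 74.0, a ratio of 2.58 (95% exact Poisson interval 2.23 to 2.99). The centre had 71.8 per Mb, close to the right arm, and the whole list 96.1. Peaks covered 543.6 kb of the left arm (15.8% of its length), against 120.4 kb of the right arm (3.49%). Intervals throughout cover counting error only; neighbouring peaks are not independent, so they are too narrow. With 1 series list there was no test over samples.

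**Figure D1:**
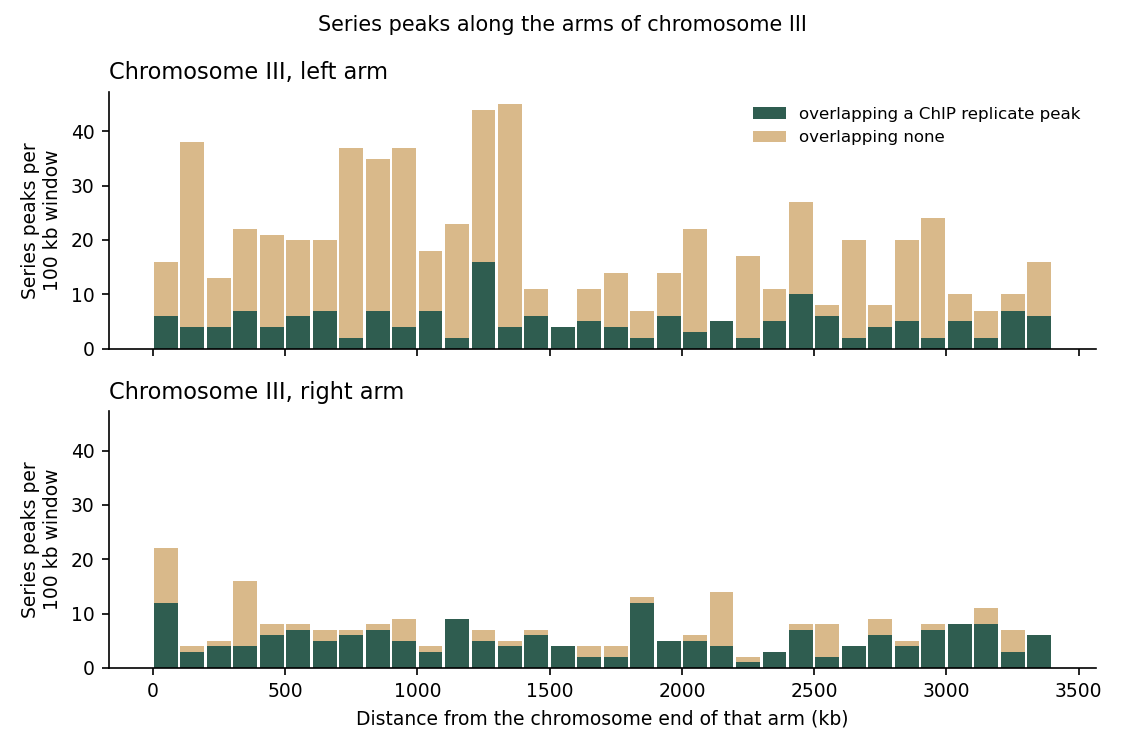
Series peaks per 100 kb window (y axis) against distance from the chromosome end in kb (x axis), for the left arm above and the right arm below; bars are stacked, with peaks that overlapped a peak of at least 1 ChIP replicate in dark and those that overlapped none in pale. The dark parts have a median of 5 peaks per window in each arm, while the pale parts reach 41 in the left arm and 12 in the right arm.

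The excess was uneven along the arm. In 34 windows of 100 kb counted from the chromosome end, the left arm had a lowest count of 4, a median of 17.5 and a highest of 45 series peaks, and the right arm 2, 7 and 22. The ranges overlapped, but 16 left-arm windows and 1 right-arm window held 20 peaks or more. The densest left-arm windows lay 1300 to 1400 kb (45 peaks) and 1200 to 1300 kb (44 peaks) from the end, and the sparsest 1500 to 1600 kb from it (4 peaks). By segments of 500 kb, density was 220 per Mb in the first, 298 in the second, 282 in the third and 100 in the fourth. It was 164 and 160 in the next ones and 101 in the last 446 kb before the boundary. In the right arm the outermost segment was the densest at 110 per Mb, and the others ranged from 60 to 78.

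The 6 densest left-arm windows, picked after their counts were seen, held 236 series peaks or 35.9% of those in the arm. In these windows 15.7% of the series peaks overlapped a replicate peak. Replicate 1 had 14 of its 74 left-arm peaks there, and replicate 2 had 26 of its 149. Across the whole left arm, no window held more than 6 replicate 1 peaks or more than 8 replicate 2 peaks. Over the windows of the left arm, variance divided by mean was 6.46 for series peaks, 1.15 for replicate 1 peaks and 0.959 for replicate 2 peaks. In the right arm it was 2.14, 2.25 and 1.13, so there replicate 1 peaks were as uneven as series peaks.

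Left-arm peaks were wider. Their median width was 392 bp (95% interval 360 to 422), against 282 bp (263 to 309) in the right arm and 319 bp in the whole list. The narrow ends of both distributions were close, with lower quartiles of 236 and 217 bp. The shortest peak was 146 bp in each arm, which is also the shortest of the whole list. The difference lay in the upper part, where the upper quartile was 777 bp in the left arm and 394.5 bp in the right arm. Peaks over 1500 bp numbered 88 in the left arm (13.4%), against 9 in the right arm (3.53%) and 9.28% of the whole list. Those 88 peaks held 54.2% of all bases covered in the left arm. That share was close to the 51.3% of the whole list, while the right arm had 32.4%. Without peaks over 1500 bp the difference of the medians shrank to 61 bp.

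The 5 widest peaks of the left arm were between 6840 and 9831 bp long. The widest, at chromosome III 2667400 to 2677230, measured 9831 bp with a deposited score of 23.99 (rank 1517 of 9630) and overlapped no replicate peak. The next, at 392809 to 402280 (9472 bp, score 37.25), was the only one of the 5 that met replicate peaks. It met 2 peaks of replicate 1, the higher of them with a score of 158.87, and none of replicate 2. The others lay at 1354427 to 1362643 (8217 bp), 2077537 to 2085124 (7588 bp) and 2463248 to 2470087 (6840 bp), with scores of 28.39, 46.81 and 37.95. The right arm had 1 wider peak than any of these, of 10630 bp.

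**Figure D2:**
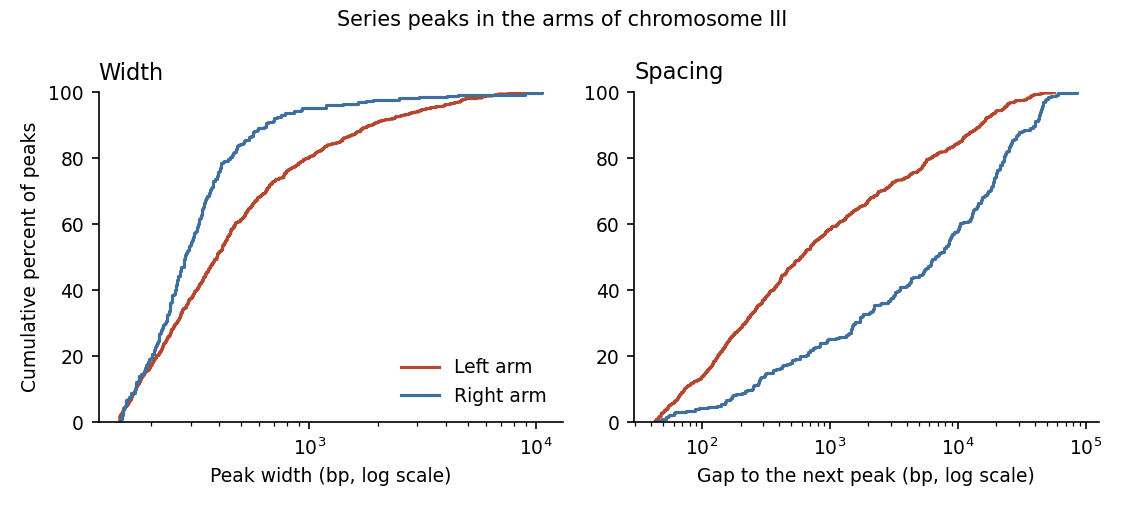
Cumulative percent of series peaks (y axis) by width in bp and by the gap to the next peak in bp (x axes, log scales), for the left and the right arm of chromosome III. The curves of width part above about the lower quartiles of 236 and 217 bp, and the curves of gaps are apart nearly throughout, with medians of 589 bp in the left arm and 6642 bp in the right arm.

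Spacing separated the arms more than width did. The median gap between the end of a peak and the start of the next was 589 bp in the left arm, against 6642 bp in the right arm and 8566 bp in the centre. In the left arm 514 of 657 peaks (78.2%, 95% Wilson interval 74.9 to 81.2) had a neighbour within 1000 bp, against 99 of 255 (38.8%, 33.0 to 44.9) in the right arm. Peaks joined by gaps of up to 1000 bp were taken as a run. The left arm had 80 runs of 3 or more peaks, holding 414 peaks (63.0%, 59.3 to 66.6). The right arm had 16 such runs with 61 peaks (23.9%, 19.1 to 29.5), and in the whole list 44.5% of peaks lay in such runs. Runs of at least 10 peaks numbered 6 in the left arm and 0 in the right arm. They held 73 of the 657 left-arm peaks. The whole list had 61 such runs with 866 of its 9630 peaks, so they were not particular to this arm. The longest run of the list had 34 peaks, and that of the left arm 18.

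When each run, pair or single peak was counted once, the left arm had 273 units and the right arm 191, a density ratio of 1.43 (1.18 to 1.73) in place of 2.58. Single peaks, with no neighbour within 1000 bp, were about as dense in the left arm as in the right arm: 143 and 156 peaks, a ratio of 0.917 (0.725 to 1.16). The density of peaks in runs of 3 or more was 120.1 per Mb in the left arm and 17.7 per Mb in the right arm, a ratio of 6.79 (5.18 to 9.03). The larger number of left-arm peaks thus lay in runs and pairs.

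The longest run held 18 peaks between bases 1271703 and 1296609. They covered 80.7% of its 24907 bp, with a median gap of 219 bp, widths from 169 to 5767 bp and scores from 4.27 to 30.28. Only 1 of the 18 overlapped a replicate peak, in replicate 1. The second run, of 13 peaks at 1376105 to 1393099, covered 73.0% of 16995 bp and met no replicate peak. The third, of 12 peaks at 829355 to 845786, was different: 4 of its peaks overlapped replicate 2 and 2 of them also replicate 1. Of the 80 left-arm runs, 57 (71.2%) contained no peak that overlapped either replicate, against 6 of 16 (37.5%) in the right arm. Counted by peaks in such runs, 86.0% in the left arm and 62.3% in the right arm overlapped no replicate peak. In the whole list this was 84.5%, so the left arm was close to the list and the right arm below it. All left-arm runs together spanned 467.6 kb or 13.6% of the arm, and those of the right arm 66.6 kb or 1.93%.

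Left-arm peaks ranked lower by score than right-arm peaks, although the arm held strong peaks. The score is 1 value per peak given by the authors on a scale that no header names, so it was used for ranks within a list. The median left-arm peak stood at the 47.6th percentile of the series list (95% interval 44.6 to 51.5), against the 62.5th (55.4 to 67.5) in the right arm and the 65.7th in the centre. Of the left-arm peaks 55 (8.37%) were among the highest-scoring 10% of the list, against 48 (18.8%) in the right arm. In counts the arms were therefore alike at the top of the list, with 7 left-arm and 10 right-arm peaks among the highest 100.

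The 10 highest-scoring left-arm peaks all overlapped a replicate 2 peak, and 5 of them a replicate 1 peak as well. The first, at 2768364 to 2769043, had a series score of 127.83 (rank 21 of 9630) and overlapped a replicate 2 peak of score 1994.75 (rank 62 of 4580), with none in replicate 1. The second lay at 1202091 to 1202606 (98.58), again with a replicate 2 peak alone (1536.71, rank 124). A score of 96.03 was shared by the peaks at 1618845 to 1619327, found in replicate 1 (191.88, rank 727) and replicate 2 (1503.83, rank 134), and at 2596949 to 2597399, found in replicate 2 (1467.0, rank 143). The peak at 87168 to 87591 (91.83) was found in both, at rank 2412 of 2698 in replicate 1 and rank 234 in replicate 2. In the replicate 2 list, the best overlapping peaks of all 10 ranked between 62 and 506. In the replicate 1 list, those of the 5 ranked much less evenly, between 174 and 2412. For background, the whole series list was cut by score into 4 equal classes. In its highest class, 92.9% of peaks up to 1000 bp overlapped a replicate 2 peak, against 8.96% of wider ones. For replicate 1 these shares were 43.7% and 17.1%. A higher overlap with replicate 2 was thus common to strong peaks of up to 1000 bp across the list. Whether replicate 2 weighed more in the series score was not tested.

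The remaining 5 lay at 2528609 to 2528944 (86.86), 2785655 to 2786214 (85.22), 2966517 to 2970153 (80.34), 3175000 to 3175391 (74.78) and 2470476 to 2472209 (73.49). The last of these was the strongest of the 10 in replicate 1, at rank 174 with a score of 552.04. In contrast to the arm as a whole, 7 of the 10 were single peaks and the other 3 belonged to pairs, and 8 of the 10 were at most 680 bp wide.

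**Figure D3:**
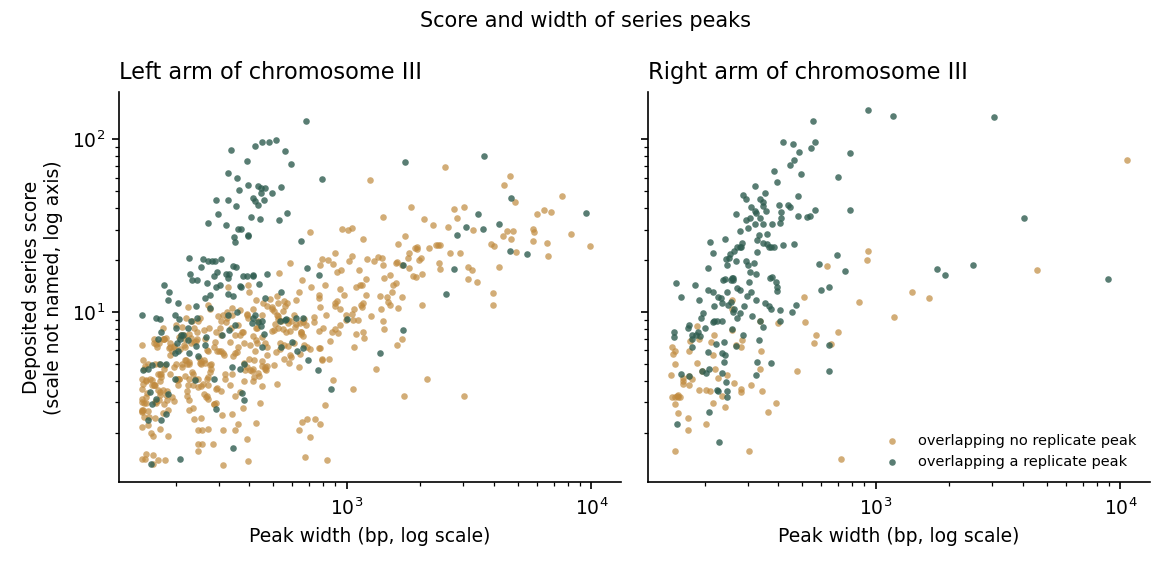
Deposited series score (y axis, log scale, scale not named in the files) against peak width in bp (x axis, log scale) for the left and the right arm of chromosome III; each point is 1 series peak, dark where it overlapped a replicate peak. In the left arm the points without a replicate peak form a band in which score climbs with width, up to 68.57, and the points above a score of 50 at widths up to 1000 bp are all dark, 18 in the left arm and 15 in the right arm.

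Score and width together set apart left-arm peaks with and without a replicate peak. Among the 485 left-arm peaks that overlapped no replicate peak, score followed width (Spearman's rho = 0.73 across peaks, which share the same reads and caller), and among the 172 that overlapped one the relation was looser (rho = 0.46). The corresponding values in the right arm were 0.52 (76 peaks) and 0.61 (179 peaks). Above a score of 50 the left arm held 20 peaks with a replicate peak and 4 without, and the 4 without were all wider than 1000 bp. Among the highest-scoring 25% of the series list, 52 of 63 left-arm peaks of up to 1000 bp overlapped a replicate peak (82.5%), against 13 of 81 wider ones (16.0%). In the right arm these were 78 of 81 (96.3%) and 5 of 7. In the whole list they were 1553 of 1665 (93.3%) and 148 of 737 (20.1%), so the split by width was not particular to the left arm.

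The next comparison was of the arm's peaks with the list of each ChIP library, taking an overlap of 1 bp. Replicate 1 had a peak at 62 of the 657 left-arm series peaks (9.44%, 95% Wilson interval 7.43 to 11.9), against 66 of 255 in the right arm (25.9%, 20.9 to 31.6) and 18.6% of the whole list. Replicate 2 had one at 159 left-arm peaks (24.2%, 21.1 to 27.6), against 170 right-arm peaks (66.7%, 60.7 to 72.2) and 41.9% of the whole list. At least 1 replicate met 172 left-arm peaks (26.2%, 23.0 to 29.7), against 179 right-arm peaks (70.2%, 64.3 to 75.5) and 45.3% of the whole list. The difference between the arms was -44.0 percentage points (95% Newcombe interval -50.2 to -37.2). It was -16.4 points for replicate 1 alone and -42.5 points for replicate 2 alone. Reads of the ChIP libraries may also underlie the series list, so an overlap is no independent check of a site.

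**Figure D4:**
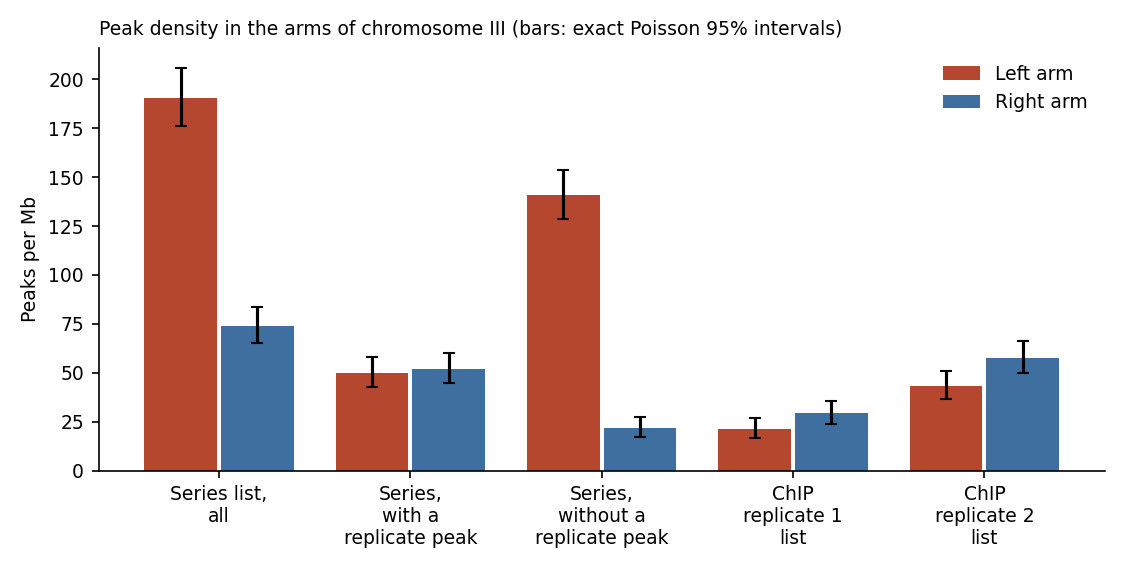
Peaks per Mb (y axis) in the left and the right arm of chromosome III for the whole series list, its peaks with and without an overlapping replicate peak, and the lists of ChIP replicates 1 and 2; error bars are exact Poisson 95% intervals. The left arm stands above the right arm for the series list and for its peaks without a replicate peak (140.7 against 22.1 per Mb), and below it in both replicate lists.

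Counted by density, series peaks with a replicate peak were as frequent in the left arm as in the right arm: 49.9 against 51.9 per Mb, a ratio of 0.961 (0.775 to 1.19). Those found in both replicates numbered 49 in the left arm and 57 in the right arm (ratio 0.860, 0.575 to 1.28). Peaks that overlapped no replicate peak numbered 485 in the left arm and 76 in the right arm, or 140.7 against 22.1 per Mb (ratio 6.38, 5.00 to 8.24). The left arm thus had 402 more peaks than the right arm in all and 409 more among those without a replicate counterpart. Those peaks were wider in the left arm, with a median of 419 bp against 231 bp in the right arm, and they covered 430.7 kb of it against 40.5 kb. Peaks with a replicate counterpart also differed somewhat, with medians of 352 and 305 bp.

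**Figure D5:**
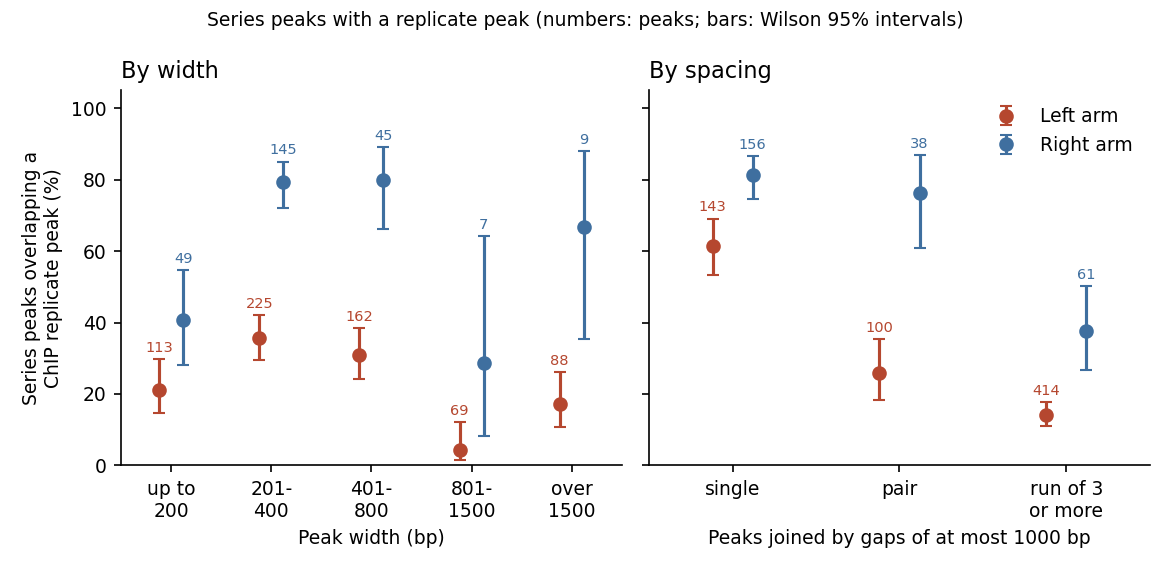
Percent of series peaks that overlapped a peak of at least 1 ChIP replicate (y axis) by peak width and by spacing (x axes), for the left and the right arm of chromosome III; points are shares, error bars Wilson 95% intervals, and the small numbers are peaks in each class. The left arm lies below the right arm in every class, from 61.5% against 81.4% for single peaks to 14.0% against 37.7% for runs of 3 or more.

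The lower overlap in the left arm held within classes of width and spacing. Among peaks over 200 and up to 400 bp wide, 35.6% in the left arm overlapped a replicate peak (29.6 to 42.0), against 79.3% in the right arm (72.0 to 85.1). Among those over 400 and up to 800 bp it was 30.9% (24.3 to 38.4) against 80.0% (66.2 to 89.1). Only 3 of 69 left-arm peaks over 800 and up to 1500 bp overlapped one, and 15 of 88 over 1500 bp. The right arm had 7 and 9 peaks in these classes, too few for close intervals. Over the whole list, the shares in these width classes were 59.7%, 43.9%, 20.2% and 20.2%, from narrow to wide. Left-arm peaks over 1500 bp (17.0%) thus stood close to the list's own value, and the narrower classes below it. By spacing, 61.5% of left-arm single peaks overlapped a replicate peak (53.4 to 69.1), 26.0% of those in pairs (18.4 to 35.4) and 14.0% of those in runs of 3 or more (11.0 to 17.7). The right arm had 81.4% (74.6 to 86.7), 76.3% (60.8 to 87.0) and 37.7% (26.6 to 50.3). In the whole list the shares were 78.3%, 43.3% and 15.5%, so left-arm runs stood close to the list's own value and left-arm single peaks below it.

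Within the arm, overlap was more frequent at higher scores. With the list cut by score into 4 equal classes, it was 11.5% in the lowest, 18.6% and 32.7% in the middle ones and 45.1% (37.2 to 53.3) in the highest. The right arm had 28.3%, 52.2%, 83.8% and 94.3% (87.4 to 97.5). The whole list had 22.9%, 34.5%, 53.1% and 70.8%, so overlap climbed with score there too. Along the left arm the share was lowest between 500 and 1000 kb from the end, at 17.4% (12.2 to 24.3), and highest in the last 446 kb before the boundary, at 46.7% (32.9 to 60.9), and between 1500 and 2000 kb, at 42.0% (29.4 to 55.8). The number of overlapping peaks per segment varied little, from 19 to 35, while all series peaks varied from 45 to 149.

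The replicate lists by themselves gave the left arm fewer peaks than the right arm. Replicate 1 had 74 in the left arm and 101 in the right arm (21.5 and 29.3 per Mb, ratio 0.733, 0.535 to 0.999). Replicate 2 had 149 and 198 (43.2 and 57.5 per Mb, ratio 0.753, 0.604 to 0.935). Both ratios were below 1, while that of the series list was above it. The interval for replicate 1 reached past 1 with arms as the outer 20% of the chromosome (0.567 to 1.12), in the higher-scoring 50% of each list (0.438 to 1.06) and with peaks joined (0.519 to 1.01). That for replicate 2 did so in the higher-scoring 50% (0.555 to 1.01). Widths in the replicate lists differed little between the arms: medians were 385 bp in the left arm and 394 bp in the right arm in replicate 1, and 536 and 518 bp in replicate 2. Median score percentiles were also near each other, 49.6 and 53.2 in replicate 1 and 56.2 and 54.8 in replicate 2, with overlapping intervals. Of the left-arm replicate 1 peaks, 51 of 74 (68.9%, 57.7 to 78.3) overlapped a replicate 2 peak, against 71 of 101 (70.3%, 60.8 to 78.3) in the right arm. In the whole replicate 1 list this share was 62.5%. From the larger replicate 2 list, 47 of 149 left-arm peaks (31.5%) overlapped a replicate 1 peak. In the right arm these were 65 of 198 (32.8%), and in the whole replicate 2 list 34.9%. The replicates thus met each other about as often in both arms.

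Most left-arm replicate peaks had a series peak. In replicate 1 these were 61 of 74 (82.4%, 72.2 to 89.4), against 65 of 101 in the right arm (64.4%, 54.6 to 73.0) and 65.2% of the whole list. In replicate 2 they were 139 of 149 (93.3%, 88.1 to 96.3), against 163 of 198 in the right arm (82.3%, 76.4 to 87.0) and 83.0% of the whole list. Series peaks covered 15.8% of the left arm and 3.49% of the right arm, so a replicate peak met one more easily in the left arm, and the part of that coverage in these shares was not tested. The difference for replicate 1, 18.1 points, was -9.15 points with an overlap of 50% of both peaks, -1.11 without peaks over 1500 bp, 3.45 in the higher-scoring 50% of each list and 5.37 with midpoints within 200 bp. That for replicate 2, 11.0 points, was -1.24 in the higher-scoring 50%, 4.83 without peaks over 1500 bp and 5.94 with midpoints within 200 bp. The interval of each of these 7 alternative values included 0.

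The best series peaks under the 5 strongest left-arm peaks of each replicate ranked between 21 and 5861 of 9630. In replicate 1 the first was at 354443 to 355307 (score 961.49, rank 71 of 2698), over a series peak of score 16.43 and rank 2455. The next were at 1656402 to 1657103 (rank 172, series rank 2217), at 2470669 to 2471347 (rank 174, series rank 138), at 2171779 to 2172569 (rank 188, series rank 4407) and at 349373 to 350309 (rank 207, series rank 5861). All 5 also overlapped a replicate 2 peak. In replicate 2 the first was at 1299638 to 1303182, which carried a score of 3100 (rank 6 of 4580). It was 3545 bp wide, lay beyond the end of the longest run of series peaks, and overlapped a replicate 1 peak. The series list cut it into 4 peaks, the best of which scored 6.68 (rank 5600).

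The others of the replicate 2 top 5 had no replicate 1 peak. At 2496621 to 2501914 (rank 40, 5294 bp) 6 series peaks lay under 1 replicate peak, with a best score of 9.27, and at 1017276 to 1020698 (rank 79, 3423 bp) 5 did, with a best of 9.28. At 3334275 to 3337077 (rank 33, 2803 bp) a single series peak scored 12.75 (rank 3182). The peak at 2768345 to 2769207 (rank 62, 863 bp) was the one whose series peak led the arm. In all, 12 of 149 left-arm replicate 2 peaks met 2 or more series peaks, against 7 of 198 in the right arm, where none met more than 2.

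How far the scores of overlapping peaks ranked alike differed by replicate. Across left-arm single peaks, the series score and the highest overlapping replicate 2 score had a Spearman's rho of 0.83 (87 peaks), against 0.86 (124 peaks) in the right arm. Across peaks in pairs and runs rho was -0.09 in the left arm (72 peaks) and 0.63 in the right arm (46 peaks). With replicate 1 there was no such split: rho was -0.24 across left-arm single peaks (22 peaks) and 0.39 across those of the right arm (41 peaks). Across peaks in pairs and runs it was -0.05 in the left arm (40 peaks) and 0.43 in the right arm (25 peaks). These are descriptions across peaks that may share reads; peaks of 1 run can share the same replicate peak.

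Few left-arm replicate peaks lacked a series peak. In replicate 1 they numbered 13, with a median width of 250 bp, and the strongest was at 445430 to 445953 (score 462.69, rank 231), which also overlapped a replicate 2 peak. The second was the tip of the chromosome, at 1 to 215 (199.34, rank 692), and the third lay at 2924893 to 2925104 (171.86, rank 828). In replicate 2 they numbered 10, and the strongest, at 2534902 to 2535641, ranked 3239 of 4580 and overlapped a replicate 1 peak. The next, at 1436739 to 1437135 (rank 3423) and 2871770 to 2872262 (rank 3481), did not. The first series peak from the chromosome end lay at 25565 to 25959 (27.67, rank 1250) and overlapped a peak in replicate 1 (259.28, rank 507) and replicate 2 (730.62, rank 625).

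At the boundary of the arm, the last peaks inside lay at 3404436 to 3404743 (score 20.16, in replicate 2) and 3443121 to 3443512 (score 1.85, in neither replicate). The first outside, at 3446608 to 3446891 (score 1.3) and 3447174 to 3447648 (score 14.38), opened a run of 9 peaks and overlapped no replicate peak. A run of this kind was thus found just past the boundary, which is a fixed share of the chromosome. In the centre as a whole such runs were rarer: 12.3% of its peaks lay in runs of 3 or more, against 63.0% in the left arm.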

How the data were processed

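The authors deposited 3 peak lists with coordinates in WormBase WS220, per the file headers: 1 per SWD-3 ChIP library, whose source column names MACS with no version, and 1 for the whole series, whose source column names MACS v2. BWA and the build ce10 appear in the submitters' processing notes. Of thresholds, control and pooling, nothing is given in the sources used here. For every peak there is a start, an end and 1 deposited score on an unnamed scale. No list holds counts, so depth is unknown. The input libraries' reads were not used here.

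Peaks were assigned by midpoint, overlaps, gaps and runs were computed with Python 3.11.15, numpy 2.4.6 and pandas 2.3.3, and intervals with scipy 1.17.1; matplotlib 3.10.9 drew the figures. The functions were tested on simulated data. Shares have 95% Wilson intervals and their differences Newcombe intervals, density ratios exact Poisson intervals, and medians order-statistic intervals. Chromosome length was the largest peak coordinate. Peaks are not replicates, so no test was made.

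Peaks named in the text are the 10 highest-scoring and 5 widest, the 3 longest runs, those at the arm's ends, and each replicate's 5 strongest and 3 strongest without a series peak. Members and comparisons were chosen with earlier results of these data known. The annotation at hand is of another assembly, so no genes or sequences are given. Alternatives were shorter arms, the higher-scoring 50% of each list, leaving out peaks over 1500 bp, joined peaks, other gaps and stricter overlaps.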

Additional observations from a re-analysis of the deposited data

How the results depend on the processing

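Of 56 alternative values for 12 comparisons of the left with the right arm, 42 stayed within the 95% interval of the value reported. The density ratio of 2.58 was 1.98 in the higher-scoring 50% of the list and 1.43 with peaks joined across gaps of 1000 bp. The difference in median width of 110 bp was 284 bp in the higher-scoring 50%, 61 bp without peaks over 1500 bp and 404 bp after joining. The difference in the percent of peaks in runs, 39.1 points, was 29.2 points in the higher-scoring 50% and 32.3 without peaks over 1500 bp. With an overlap of 50% of both peaks, the difference was -29.6 points for replicate 2 and -34.8 for either replicate. Leaving out 1 ChIP replicate gave between -42.5 and -16.4 points for the overlap with either, the smaller difference being that without replicate 2. The series share of replicate 1 peaks, 18.1 points higher in the left arm, was 3.45 points higher in the higher-scoring 50% and turned to -1.11 without peaks over 1500 bp and -9.15 at the stricter overlap. That of replicate 2, 11.0 points higher, turned to -1.24 in the higher-scoring 50%. The cause was not tested. No paired analysis was possible because only the ChIP libraries have a peak list here. Unknown depth limits every list: where no peak is listed, none was called.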

Other observations

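The arm that carries the pairing centre, listed from textbook knowledge, is the right one of chromosomes I and V and the left one of II, III, IV and X. In the series list it had more peaks per Mb than the opposite arm on 6 of 6 chromosomes, by ratios from 1.67 on IV to 2.58 on III, where the ratio was the highest of the 6. The densities were 253.8 against 104.8 per Mb on I, 204.1 against 98.02 on II, 190.7 against 74.0 on III, 131.5 against 78.7 on IV, 204.0 against 107.8 on V and 106.6 against 62.3 on X. The share of series peaks with a replicate peak was lower in the pairing-centre arm on 6 of 6 chromosomes, by very unequal margins. It was 20.5% against 48.4% on I, 16.6% against 50.3% on II and 26.2% against 70.2% on III. On IV it was 33.2% against 41.6%, on V 15.0% against 23.0% and on X 37.5% against 73.2%. The replicate lists did not share this order, and the pairing-centre arm was the denser one on 2 of 6 chromosomes in each. Among all 12 arms, counted from the highest, the left arm of III stood at place 4 by series density and 4 by the percent of peaks in runs. It stood at place 2 by median width and 8 by the share with a replicate peak. The right arm of III stood at places 11, 11, 12 and 2 in the same order. The comparison arm was thus itself near the ends of these orders, which bears on every difference between the arms. These are descriptions over 6 chromosomes, with no test, and the arms differ in more than the pairing centre.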
